A study of Mus musculus with 40 samples.

Results

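Type I interferon response genes were followed through B cell development in mouse bone marrow. The set was given as a list of 32 gene symbols, chosen by name and not by expression, although earlier results of these data were known. All 32 matched exactly 1 of the 21958 gene rows of the count table. The libraries came from lethally irradiated CD45.1 host mice that had been reconstituted for 8 weeks with marrow of either wild-type donors (WT, 5 mice, numbered 1, 2, 3, 6 and 7) or donors homozygous for the CRISPR/Cas9-made mutation P198A (P198A/P198A mutant, 5 mice, numbered 4, 5, 8, 9 and 10). From what is known of the study, the mutation is a missense change in Slc39a7, which encodes the zinc transporter ZIP7, so counts per gene carry no check of the genotype labels. The labels name neither the age nor the sex of the mice. All 10 mice were therefore irradiated and transplanted, whichever marrow they received, and host cells were gated out by keeping CD45.2+ CD45.1- cells.

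From each mouse 100 cells of 4 successive stages were sorted straight into lysis buffer and made into Smart-seq2 libraries, which gave 40 libraries in 8 groups of 5. FrB holds pro-B cells (B220+ CD43+ CD24+ BP1-), FrD late pre-B cells (B220+ CD43- IgM- IgD-) and FrE immature B cells (B220+ CD43- IgM+ IgD-). FrC follows FrB in the usual naming of these stages, but its gate was not found in the labels.

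Type I interferons bind the receptor IFNAR1 and IFNAR2, whose kinases JAK1 and TYK2 pass the signal on to transcription factors. STAT2 and IRF9 act at interferon-stimulated response elements in the promoters of the response genes. The products sense viral RNA and DNA, block translation, hold back virus release or damp the signal, and a low tonic level of them is present in many cells without infection.

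The response element was visible in the members' own promoters, a property that the list of symbols did not use. RefSeq promoter windows of 300 bases (GRCm38.p6, 250 bases before to 50 after the start) were at hand for 24 of the 32 members. The core of the element, GAAA, then any 2 bases, then GAAA, searched on both strands with overlapping matches counted, occurred in 15 of these 24 (62.5%), against 3.99% of all 27025 genes with a window. The stretches below are shown because they carry the core upstream of the start of genes whose levels are described later. Capitals mark the core, which reads as TTTC, any 2 bases and TTTC where it lies on the other strand, and each stretch is written on the strand of the gene. They lie at chr4:156200860-156200911 (Isg15, minus strand), chr5:120907526-120907560 (Oas1a, minus), chr8:71537572-71537617 (Bst2, minus), chr3:142620589-142620628 (Gbp2, plus), chr3:142559984-142560029 (Gbp3, plus), chr3:142530268-142530307 (Gbp7, plus) and chr19:34640770-34640828 (Ifit1, plus).
Isg15: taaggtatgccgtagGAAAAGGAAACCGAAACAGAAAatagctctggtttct
Oas1a: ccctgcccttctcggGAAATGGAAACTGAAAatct
Bst2: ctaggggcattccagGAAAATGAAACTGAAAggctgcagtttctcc
Gbp2: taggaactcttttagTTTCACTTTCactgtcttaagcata
Gbp3: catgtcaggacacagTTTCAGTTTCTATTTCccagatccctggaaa
Gbp7: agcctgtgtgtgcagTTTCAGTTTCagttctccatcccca
Ifit1: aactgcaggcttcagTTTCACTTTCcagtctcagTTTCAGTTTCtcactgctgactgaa

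The first base of the core lay between 20 bases (Oas1a) and 130 bases (Bst2) before the start in these 7 genes, and Isg15 held 3 overlapping cores in a row. Ddx58, Ifih1 and Eif2ak2 had the core only after the start. No core was found in the windows of Samhd1, Ifi209 and Ifi35, which are among the members described one by one below. That says only that these letters are not in those windows.

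Library totals ran from 42111 counts (mutant FrE of mouse 9) to 43372070, around a median of 16474389, and after the lowest the next was 1723215. Over 15% of detected genes held between 1 and 9 counts in 10 libraries. These are called low-complexity libraries here, and 8 of them are mutant (FrB of mice 4, 8, 9 and 10, FrC of mice 5, 9 and 10, FrE of mouse 9) and 2 are WT (FrD of mouse 3, FrE of mouse 7). Levels below are counts relative to library size (CPM), with sizes scaled by the trimmed mean of M-values (TMM) over all 40 libraries. The mutant FrC library of mouse 9 had a TMM factor of 0.125, which lifted its summed member level from 170 plain CPM to 1363 CPM, and its erythroid markers summed to 646865 CPM. The B lineage genes moved along the WT stages, with the surrogate light chain gene Vpreb1 at -3.66 (log2) from FrC to FrD, and the recombinase gene Rag1 at -5.71 and Ms4a1 (CD20) up by 4.13 from FrD to FrE. Between 20 and 32 members had at least 1 count in a library, and the lowest number was in mutant FrB.

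A few members led the set. Per kilobase of exon, the highest WT means in FrE were 163 CPM for Ifi209, 159 for Ifi35, 85.2 for Bst2, 67.3 for Samhd1 and 62.9 for Trim30a. Without the low-complexity library of mouse 7 the FrE mean of Samhd1 was 42.8 per kilobase, below Ifi27 (64.4) and Trim30a (59.4), an alternative chosen after seeing the data. Ifi209 is a member of the DNA-sensing PYHIN family and Ifi35 is an interferon-induced leucine zipper protein. Bst2 (tetherin) holds budding virions at the cell surface, Samhd1 degrades deoxynucleotides, and Trim30a is a TRIM protein that restrains innate signalling. Some classical markers of an interferon response were near or at 0. Isg15, the ubiquitin-like modifier, did not pass 3.37 CPM in any library and had counts in 19 of 40, with 389 counts in all. Ifit1, which binds foreign RNA, was without counts in 19 of 40 libraries.

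Relative to the other RNA of the libraries (TMM scale), the members were lowest in FrC and highest in FrD and FrE in WT cells, while with spike-in scaling 29 of 32 members were lower in FrD than in FrC. The summed level of the 32 members was 1753, 1614, 1364, 1897 and 1517 CPM in WT FrB (mice 1, 2, 3, 6 and 7; mean 1629 ± 206, SD, n = 5). It was 942, 885, 972, 1282 and 1053 CPM in WT FrC, below every FrB library. It was 2994, 3548, 1804, 2430 and 2678 CPM in WT FrD, above every FrC library, with the lowest value in the low-complexity library of mouse 3. WT FrE gave 3904, 2279, 3139, 2650 and 3859 CPM, which overlapped FrD. Within a mouse, the sum was lower in FrC than in FrB in 5 of 5 WT mice (ratios 0.538 to 0.712) and higher in FrD than in FrC in 5 of 5 (ratios 1.86 to 4.01). In these sums of pooled cells, fewer expressing cells and less RNA per cell cannot be told apart.

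**Figure D1:**
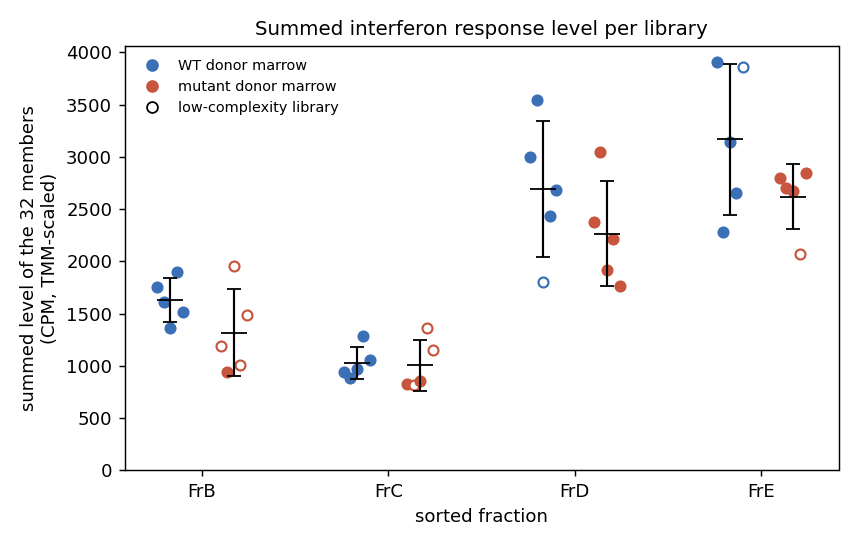
Summed level of the 32 members in CPM on TMM-scaled library sizes (vertical axis) in each library, by sorted fraction and donor genotype; black bars give the mean and SD of 5 mice and open circles are low-complexity libraries. WT FrC libraries sit at 885 to 1282 CPM, below the WT FrB libraries (1364 to 1897) and the WT FrD libraries (1804 to 3548), a scale on which the level is relative to the other RNA of the library.

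The mutant libraries went the same way, with more scatter. Mutant FrB gave 1185, 939, 1959, 1010 and 1482 CPM (mice 4, 5, 8, 9 and 10), and mutant FrC gave 827, 816, 857, 1363 and 1151 CPM. Mutant FrD gave 2376, 3050, 1916, 2218 and 1762 CPM, and mutant FrE gave 2793, 2702, 2676, 2072 and 2842 CPM. The sum was higher in FrD than in FrC in 5 of 5 mutant mice (ratios 1.53 to 3.74), and lower in FrC than in FrB in 4 of 5. On this scale the genotypes overlapped in every fraction. On plain CPM, without TMM scaling, mutant FrB (876 to 1372) lay below WT FrB (1512 to 1972) without overlap. Mouse 8, at 1959 CPM with TMM scaling, had 1191 plain CPM. The same held in FrC, where the mutants had 170 to 1006 plain CPM, the lowest in mouse 9, and WT had 1025 to 1515.

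The single members shared this dip on the TMM scale, and not from FrC to FrD with spike-in scaling. The WT mean was lowest in FrC for 23 of 32 members (71.9%, against 26.4% of the 11439 genes tested), and highest in FrE for 20 of 32 (62.5%, against 31.2%). In the mutants, 14 of 32 were lowest in FrC (43.8%, against 22.9% of all genes), 10 of 32 were lowest in FrB (31.2%, against 28.3%) and 16 of 32 were highest in FrE (against 20.5% of all genes). The steps between consecutive WT fractions were then tested with edgeR's quasi-likelihood test over all genes, with Benjamini-Hochberg adjustment over all genes tested and a threshold of 0.05 on the adjusted p; a gene past it is called.

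From FrB to FrC no member was called, and 0.166% of all genes tested were. The fitted log2 fold change was below 0 for 29 of 32 members (21 of 32 with library sizes scaled to the spike-ins), with a median of -0.97 against 0.01 over all genes. An unadjusted p under 0.05 was reached by 9 of 32 members, where 5.04% of all genes reached it. DESeq2 called 1, Gbp3, without a share of all genes to set beside it. 16 members were lower in FrC in 5 of 5 WT mice. In 7 of 32 members all 5 FrC libraries lay below all 5 FrB libraries, a pattern held by 4.69% of all genes. These were Irf7, the master factor of interferon production, Oas1a, which makes the RNase L activator, the GTPase Gbp3, the nucleic acid sensor Zbp1, Samhd1, Bst2 and Ifi27, a small membrane protein. Zbp1 had 15.1 to 97.6 CPM in WT FrB and 2.05 to 13.96 CPM in WT FrC. Without the low-complexity WT libraries (FrD of mouse 3 and FrE of mouse 7), 2 members, Ifi27 and Samhd1, were called lower. In that fit 1.38% of all genes were called lower.

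From FrC to FrD 4 of 32 members rose and none fell, where 2.95% of all genes rose and 5.23% were called in either direction. They were Samhd1 (log2 fold change 2.66 ± 0.40, SE, adjusted p = 0.000355), Ifi209 (1.86 ± 0.30, adjusted p = 0.000763), Ddx58 (1.81 ± 0.51, adjusted p = 0.0354) and Ifi35 (0.85 ± 0.24, adjusted p = 0.0401). 27 of 32 members had a fold change above 0 on the TMM scale, but 3 of 32 did when library sizes were scaled to the spike-ins, where the median of all genes moved from 0.09 to -2.39 and that of the members from 0.96 to -1.17. Each rise here is therefore relative to the other RNA of the cells, whose amount relative to the spike-ins was lower in FrD (mean log2 ratio 8.41) than in FrC (10.6). In 5 of 32 members (these 4 and Gbp3) all WT FrD libraries lay above all WT FrC libraries, against 4.55% of all genes. Within mice on the TMM scale, 8 of 32 members were higher in FrD in 5 of 5 WT mice and 0 were lower in 5 of 5. In mouse 3, 16 members were higher and 16 lower. On the spike-in scale 6 members were called lower (Ifi203, Oas1a, Bst2, Ifi35, Ifi27 and Ifit2) and none higher, where 57.7% of all genes tested were called lower. With the mouse as a block, Samhd1 and Ifi209 remained called while Ddx58 (adjusted p = 0.0664) and Ifi35 (adjusted p = 0.0698) did not. Without the low-complexity WT libraries (FrD of mouse 3 and FrE of mouse 7) 12 members were called higher, where 8.54% of all genes were, the same 4 and Gbp2, Gbp3, Ifi203, Ifi27, Oasl2, Rtp4, Trim30a and Xaf1.

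**Figure D2:**
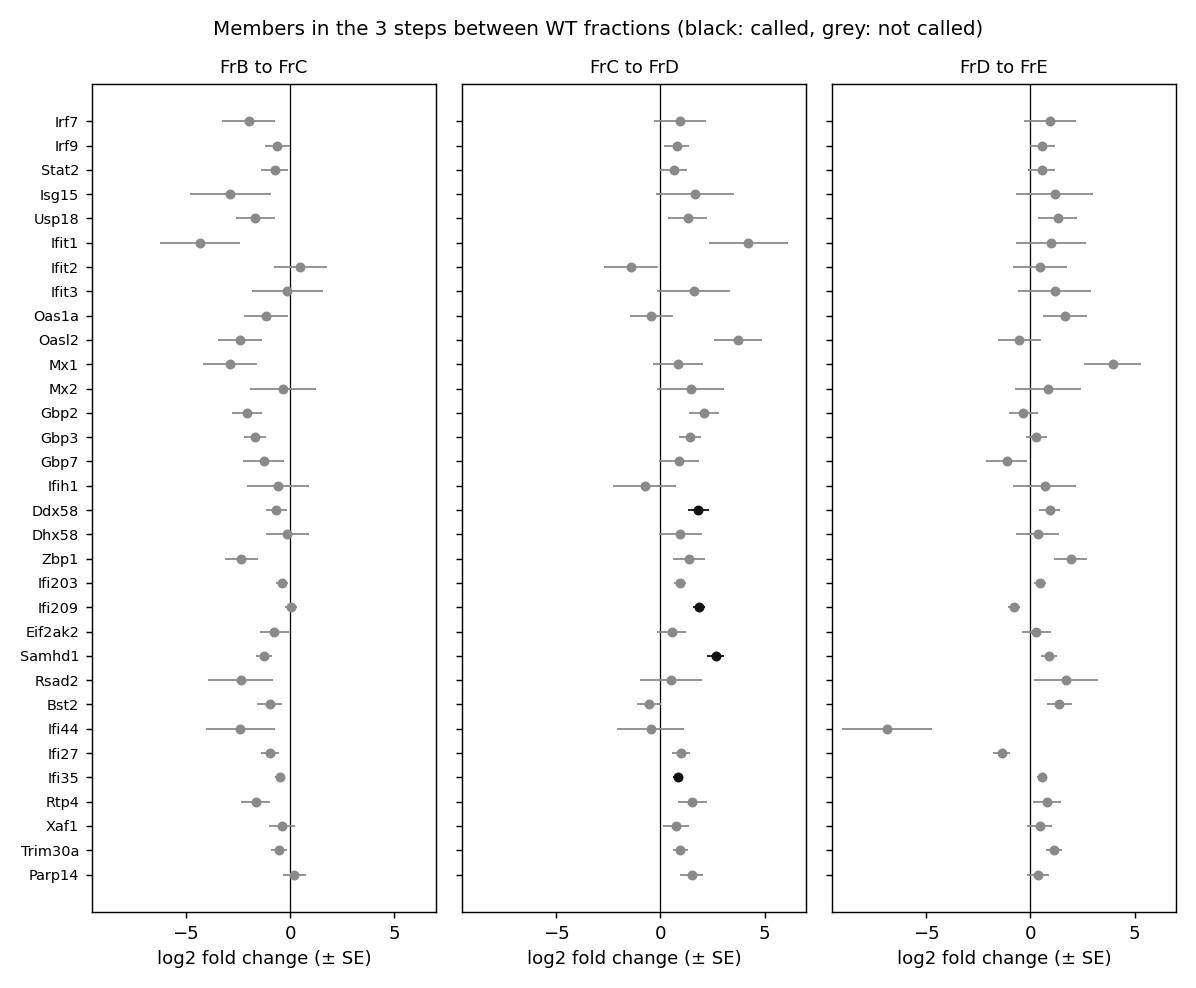
Log2 fold change with its SE for each of the 32 members (rows) in the 3 steps between WT fractions, from edgeR on TMM-scaled libraries of 5 mice per fraction; black points passed an adjusted p of 0.05. From FrB to FrC 29 of 32 points lie below 0 and from FrC to FrD 27 of 32 lie above 0, a direction that 3 of 32 keep with spike-in scaling.

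Samhd1 lies on chromosome 2. Its WT levels were 100.3, 147, 104, 153 and 99.8 CPM in FrB and 56.6, 36.6, 40.4, 60.7 and 59.6 CPM in FrC. They were 323, 492, 372, 147 and 299 CPM in FrD and 482, 306, 453, 324 and 1514 CPM in FrE. Every FrC library was below every FrB and every FrD library, and the value of 1514 in the low-complexity FrE library of mouse 7 stood apart from the other 4. In the mutants FrC held 55.8, 12.7, 21.7, 181 and 54.9 CPM and FrD held 328, 507, 294, 378 and 261 CPM, again without overlap. On the spike-in scale the WT difference from FrC to FrD was 0.41 (adjusted p = 0.558).

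Ifi209 lies on chromosome 1 beside its relatives, and was the most abundant member per kilobase in WT FrC, FrD and FrE. Its WT levels were even in FrB (259, 270, 275, 257 and 247 CPM) and in FrC (299, 204, 262, 323 and 242 CPM). They were 1214, 1224, 330, 1049 and 1093 CPM in FrD and 855, 596, 579, 532 and 326 CPM in FrE. The FrD value of 330 belonged to the low-complexity library of mouse 3 and was still above every FrC library. Mutant FrD held 858, 569, 559, 595 and 400 CPM, and mutant FrC held 213, 112, 218, 60.5 and 154 CPM. On the spike-in scale the WT difference from FrC to FrD turned to -0.66 (adjusted p = 0.304).

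Ddx58 encodes RIG-I, a cytoplasmic sensor of viral RNA, and lies on chromosome 4. Its WT levels were 6.08, 12.1, 14.9, 20.4 and 32.9 CPM in FrC and 71.4, 101.4, 45.5, 42.8 and 45.5 CPM in FrD, without overlap. WT FrB held 26.6, 23.7, 15.8, 35.9 and 34.5 CPM and WT FrE 91.2, 105, 138, 213 and 30.7 CPM. In the mutants FrC (0.179 to 59.5 CPM) overlapped FrD (29.0 to 49.5 CPM). The call was kept in 1 of 5 fits that each left out 1 WT mouse, and on the spike-in scale the difference was -0.30.

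Ifi35 lies on chromosome 11, and its WT levels were 96.3, 114, 109, 101.4 and 80.7 CPM in FrC and 185, 195, 226, 116 and 198 CPM in FrD. WT FrE held 338, 241, 297, 196 and 306 CPM, and WT FrB 158, 160.5, 139, 138 and 110 CPM. The level was higher in FrD than in FrC, and higher in FrE than in FrD, within 5 of 5 WT mice and 5 of 5 mutant mice. The call from FrC to FrD was kept in 1 of 5 fits that each left out 1 WT mouse, and on the spike-in scale it turned to a call the other way (-1.63, adjusted p = 0.0264).

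**Figure D3:**
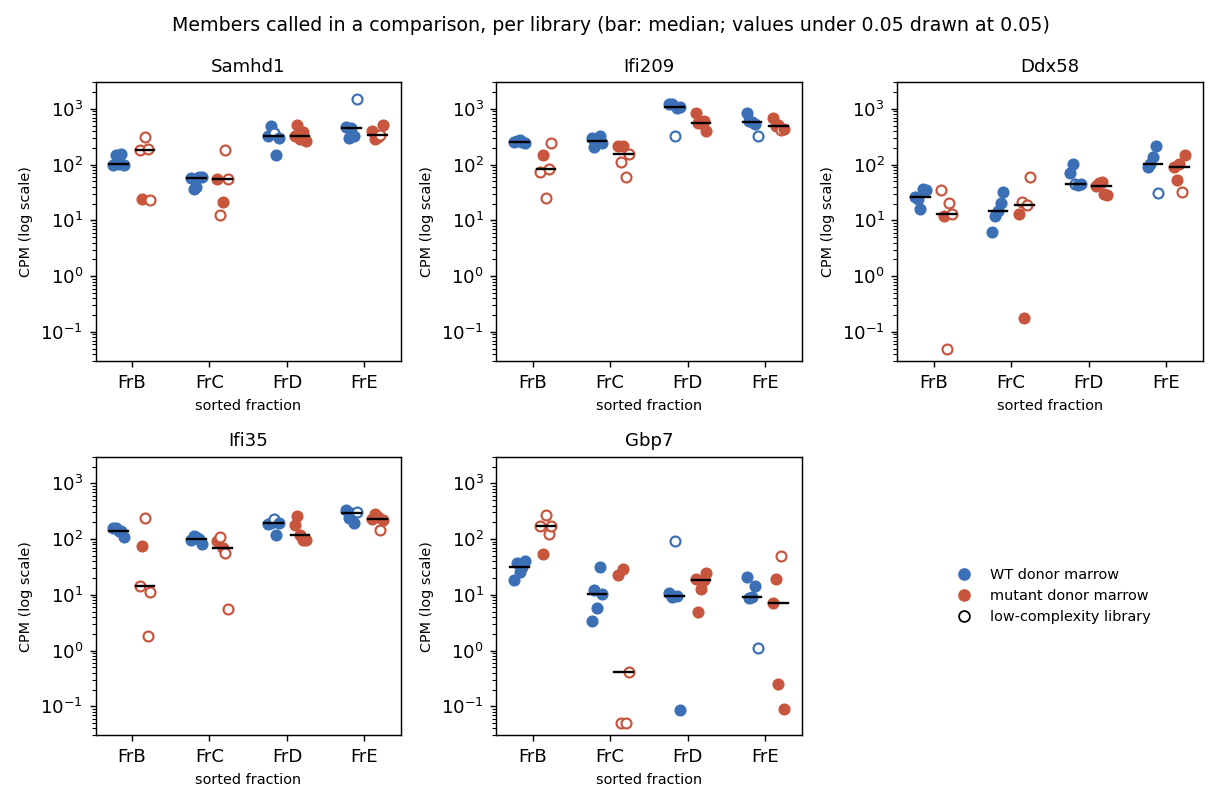
CPM on a log axis in each of the 40 libraries, by fraction and donor genotype, for the 5 members called in a comparison; bars are medians of 5 mice and open circles are low-complexity libraries. Samhd1, Ifi209, Ddx58 and Ifi35 lie higher in WT FrD than in WT FrC on this scale (Samhd1 alone of these 4 with spike-in scaling), and Gbp7 lies higher in mutant than in WT FrB.

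By role, the step from FrC to FrD was above 0 on the TMM scale in all 3 transcription factors (Irf7, Irf9 and Stat2, median 0.79). It was also above 0 in Isg15 and its protease Usp18 (1.67 and 1.31) and in both dynamin-like GTPase genes (Mx1 0.85, Mx2 1.46). Mx2 is listed as a polymorphic pseudogene in the annotation used. The same held for all 3 guanylate-binding proteins (Gbp2 2.097, Gbp3 1.43, Gbp7 0.89). Without the low-complexity FrD library of mouse 3, however, the WT mean of Gbp7 was lower in FrD (1.33 CPM per kilobase) than in FrC (2.25). With spike-in scaling all 10 genes were below 0. None of these 10 was called. On the TMM scale Irf7, Stat2, Isg15, Mx2 and Gbp7 were higher in FrD in 2 of 5 WT mice and lower in 3 of 5. Gbp2 and Gbp3 were higher in 5 of 5, Irf9 and Mx1 in 4 of 5 and Usp18 in 3 of 5. The 3 members above 0 with spike-in scaling were Samhd1, Oasl2 and Ifit1. Oasl2, an oligoadenylate synthetase-like protein, had 3.73 ± 1.13 (adjusted p = 0.0548) with 0.0503 to 3.69 CPM in WT FrC and 3.42 to 73.1 CPM in WT FrD, which overlapped. Ifi203, another PYHIN gene, had 0.96 ± 0.29 (adjusted p = 0.0549) with 101 to 138 CPM in WT FrC and 137 to 302 CPM in WT FrD, which also overlapped, and it was higher in 5 of 5 WT and 5 of 5 mutant mice. On the spike-in scale Oasl2 kept its direction (1.41) and Ifi203 turned (-1.50, adjusted p = 0.0302). The 5 members below 0 were Ifit2, Ifih1, Bst2, Ifi44 and Oas1a, none of them called.

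The remaining members had wide errors. Parp14, a mono-ADP-ribosyl transferase, had WT means of 30.1, 34.6, 100.2 and 133 CPM in FrB, FrC, FrD and FrE. Rtp4, a chaperone of membrane receptors, had 43.6, 13.9, 40.9 and 71.7 CPM, and Xaf1, which promotes apoptosis, had 47.0, 35.8, 61.7 and 84.1 CPM. Trim30a had 85.4, 58.8, 116 and 259 CPM. The step from FrC to FrD was 1.51, 1.54, 0.77 and 0.96 in these 4 genes, without a call. Rsad2 (viperin, an antiviral enzyme) had 40.4, 7.92, 11.5 and 39.5 CPM, and Eif2ak2 (PKR, a kinase that stops translation on double-stranded RNA) had 20.3, 12.0, 17.9 and 21.7 CPM. Both were lowest in FrC in these means. Without the low-complexity FrE library of mouse 7, the WT FrE mean of Rsad2 was 1.25 CPM per kilobase, below FrC (1.83), while Eif2ak2 stayed lowest in FrC. The RNA helicases Dhx58 and Ifih1 (MDA5) had WT means between 3.73 and 27.8 CPM, and Ifit2 and Ifit3 between 1.18 and 14.8 CPM. Ifi44 went from 16.5 CPM in WT FrB to 0.0117 CPM in WT FrE.

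From FrD to FrE no member was called by edgeR, where 5.32% of all genes tested were called in either direction. 26 of 32 members lay above 0 (also 26 of 32 with spike-in scaling), with a median of 0.63 against 0.01 over all genes. An unadjusted p under 0.05 was reached by 9 of 32, where 21.2% of all genes reached it. DESeq2 called 5: Mx1, Trim30a and Zbp1 higher, Ifi27 and Ifi44 lower. Zbp1 was the only member whose WT libraries did not overlap between FrD (0.428 to 47.2 CPM) and FrE (53.0 to 88.6 CPM), a pattern of 1.84% of all genes. Ifi27 ran the other way, with 49.8 to 347 CPM in WT FrD and 28.2 to 120 CPM in WT FrE (-1.38 ± 0.42, adjusted p = 0.0565). Leaving out mouse 3 made Ifi27 and Ifi209 called lower, and leaving out mouse 2 made Trim30a called higher. For these fits and for DESeq2 the share of all genes called is not given here, so their calls are not read as a result about the members. Leaving out the 2 low-complexity WT libraries made Bst2 called higher and Ifi209 and Ifi27 lower. In that last fit 4.31% of all genes were called higher and 4.6% lower.

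The rest of the pathway was read from lists of genes that are no members. Of 73 tested genes of a further list of interferon-stimulated genes, 63 lay below 0 from FrB to FrC (median -0.70; Shisa5 and Slfn2 fell, 2 of 73 where 0.166% of all genes were called) and 56 above 0 from FrC to FrD (median 1.08; 14 of 73 rose, where 2.95% of all genes did, and none fell). With spike-in scaling 35 of 73 and 17 of 73 kept these directions. From FrC to FrD on that scale 2 were called higher (Slfn1 and Slfn2) and 18 lower, where 0.35% of all genes were called higher and 57.7% lower. The 3 of these 14 with the lowest adjusted p, named after the values were seen, were Slfn2 (4.25 ± 0.44, adjusted p = 6.53e-06), Trim12a (1.95 ± 0.32, adjusted p = 0.000907) and Ifi27l2a (2.24 ± 0.38, adjusted p = 0.00092). Of 19 receptor and signalling genes, 15 lay above 0 from FrC to FrD and Socs1, a feedback inhibitor of JAK kinases, was called (3.003 ± 0.69, adjusted p = 0.0112). With spike-in scaling 1 of 19 lay above 0 and 10 were called lower, near the 57.7% of all genes called lower there. Socs1 had 5.35 to 12.9 CPM in WT FrC, 18.6 to 143 CPM in WT FrD and 0.657 to 19.7 CPM in WT FrE, and it fell again from FrD to FrE (-2.59 ± 0.67, adjusted p = 0.0262). Ptpn6 (a phosphatase that restrains B cell signalling), Irf8 and Irf5 rose from FrD to FrE, by 2.81, 2.23 and 2.08. With spike-in scaling Ptpn6 alone of the 19 was called in that step, where 1.55% of all genes were called higher, and the calls of Irf8, Irf5 and Socs1 were lost. The receptor genes Ifnar1 and Ifnar2 did not pass the test in any WT step on the TMM scale. Both were called lower from FrC to FrD with spike-in scaling, as were 57.7% of all genes. Ifnar2 had 30.4 to 87.4 CPM across all 20 WT libraries. Of 14 further sensors and adaptors 10 lay above 0 from FrC to FrD and Tmem173 (STING) rose by 1.402, and of 25 genes of interferon-gamma GTPases and antigen presentation 18 lay above 0 and Gbp9 and Gbp4 rose. With spike-in scaling 1 of 14 and 3 of 25 lay above 0 in these lists. Interferon genes themselves were almost without counts. Of 20 interferon genes in the data, 9 had no count in any library, no type I gene passed 23 counts in all 40 libraries, and Ifng had 1557 counts in 14 libraries.

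Markers of plasmacytoid dendritic cells, B220+ cells that produce type I interferon, moved with the dip on the TMM scale. Siglech had 60.7 to 295 CPM in WT FrB, 0 to 11.3 CPM in WT FrC, 0.0426 to 294 CPM in WT FrD and 0.244 to 199.5 CPM in WT FrE. Over the whole list of 16 genes, 13 of 15 tested lay below 0 from FrB to FrC (median -3.69), against 12 of 15 with spike-in scaling. Ly6c2 fell in that step, where 0.166% of all genes were called. From FrC to FrD 13 of 15 lay above 0 (median 3.41), against 9 of 15 with spike-in scaling. On the TMM scale Atp1b1, Klk1, Cox6a2 and Ly6c2 rose, where 2.95% of all genes did. On the spike-in scale 2 of 15 were called higher and 4 lower in that step, where 0.35% of all genes were called higher and 57.7% lower. From FrD to FrE 9 of 15 lay below 0 (median -0.08), against 6 of 15 with spike-in scaling. The summed level of the list was 1209 to 2545 CPM in WT FrB, 794 to 891 in FrC, 1190 to 2344 in FrD and 768 to 1786 in FrE. Granulocyte and monocyte markers (20 genes) also differed, with sums of 125 to 12037 CPM in WT FrB, 51.3 to 775 in FrC, 48.9 to 108094 in FrD and 38.2 to 5952 in FrE. Erythroid markers (12 genes) summed to 1969 to 23001 CPM in WT FrB, 963 to 5727 in FrC, 149 to 45345 in FrD and 44.7 to 26000 in FrE. Plasma cell markers (10 genes) summed to 15792 to 51624 CPM in WT FrB, 1090 to 9425 in FrC, 1542 to 1969 in FrD and 1431 to 23891 in FrE. From FrB to FrC 9 of 10 lay below 0 (8 of 10 with spike-in scaling). Xbp1, Creld2 and Mzb1 fell, where 0.166% of all genes were called. With spike-in scaling 0 of the 11439 genes tested were called in that step, so the loss of these calls says nothing particular about the 3 genes. The T and NK cell markers did not pass 311 CPM in any WT library. The part of these cells in the other values was not tested.

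**Figure D4:**
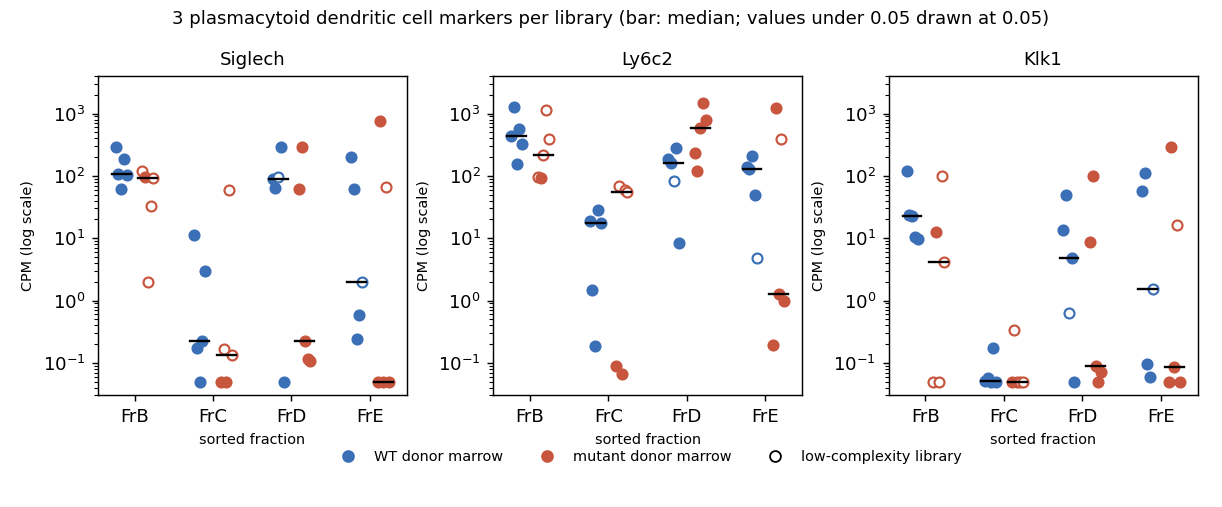
CPM on a log axis in each library for 3 markers of plasmacytoid dendritic cells, by fraction and donor genotype; bars are medians of 5 mice and open circles are low-complexity libraries. Siglech did not pass 11.3 CPM in any WT FrC library and reached 60.7 CPM or more in all 5 WT FrB libraries, while WT FrD spread from 0.0426 to 294 CPM.

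The comparison of mutant with WT marrow asked whether the mutation changed the members at any stage. In FrB 1 of 29 members tested was called, Gbp7, where 7.37% of all genes tested were called in either direction and 5.64% higher, so 1 of 29 (3.45%) is no more than the background. In FrC 0 of 27, in FrD 0 of 31 and in FrE 0 of 29 members tested were called by edgeR, beside 0.0%, 0.00996% and 0.0% of all genes. DESeq2 called none of them either. An unadjusted p under 0.05 was reached by 2, 1, 1 and 3 members in FrB, FrC, FrD and FrE. The shares of all genes that reached it were 23.9%, 11.3%, 5.28% and 5.3% in the same order. With the counts of the 4 fractions summed per mouse, 0 of 32 were called, beside 0.631% of all genes. There 3 of 32 had an unadjusted p under 0.05, beside 16.6% of all genes, and DESeq2 called none.

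Gbp7 encodes a guanylate-binding protein of the interferon-induced GTPases that act on intracellular pathogens, and sits between its relatives on chromosome 3. It had 18.6, 37.3, 25.3, 31.5 and 40.2 CPM in WT FrB and 174, 53.3, 266, 125 and 171 CPM in mutant FrB, with no overlap, a pattern that 5.68% of all genes showed. The log2 fold change was 2.35 ± 0.52 (SE, edgeR adjusted p = 0.0155). The lowest mutant value, 53.3 CPM in mouse 5, is the single mutant FrB library that is not of low complexity, and against that 1 library alone the log2 fold change was 0.80, a mutant arm without a spread of its own. Spike-in scaling (2.75, adjusted p = 0.0855) and a joint fit on all 40 libraries (2.37, adjusted p = 0.207) ended the call at a fold as large. Leaving out WT mouse 1 (adjusted p = 0.0577) or WT mouse 3 (adjusted p = 0.0529) also ended the call. In the other fractions Gbp7 overlapped between the genotypes, with 0.0852 to 90.6 CPM in WT FrD and 4.89 to 24.6 CPM in mutant FrD. Its relatives were not called in FrB (Gbp2 -2.28, Gbp3 0.55).

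No other member passed the test in mutant FrB. 21 of 29 had a fold change below 0 on the TMM scale, with a median of -0.55 against 0.11 over all genes, while on the spike-in scale 13 of 29 were below 0 and the median was 0.16 against 0.59. Ifi209 was the member whose mutant FrB libraries (74.8, 148, 25.8, 82.3 and 246 CPM) all lay below the WT libraries (247 to 275 CPM), a pattern of 7.3% of all genes, and its adjusted p was 0.139. Ifi35 had 110 to 160 CPM in WT FrB and 14.4, 74.7, 244, 1.83 and 11.3 CPM in mutant FrB. Ifi27 had 150 to 266 CPM in WT and 20.6, 103, 222, 1.83 and 68.4 CPM in mutant FrB. For both genes 4 of 5 mutant libraries were below every WT library and mouse 8 was not. In FrC, Ifi203 had 37.2 to 96.8 CPM in the mutants, below every WT library (101 to 138 CPM), as 1.37% of all genes were. The other members with an unadjusted p under 0.05 were Eif2ak2 in FrC (1.88, adjusted p = 0.379), Mx1 in FrD (3.95, adjusted p = 0.898) and, in FrE, Ifi27 (1.16, adjusted p = 0.851), Gbp3 (-2.39, adjusted p = 0.919) and Ifit2 (-4.77, adjusted p = 0.909).

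**Figure D5:**
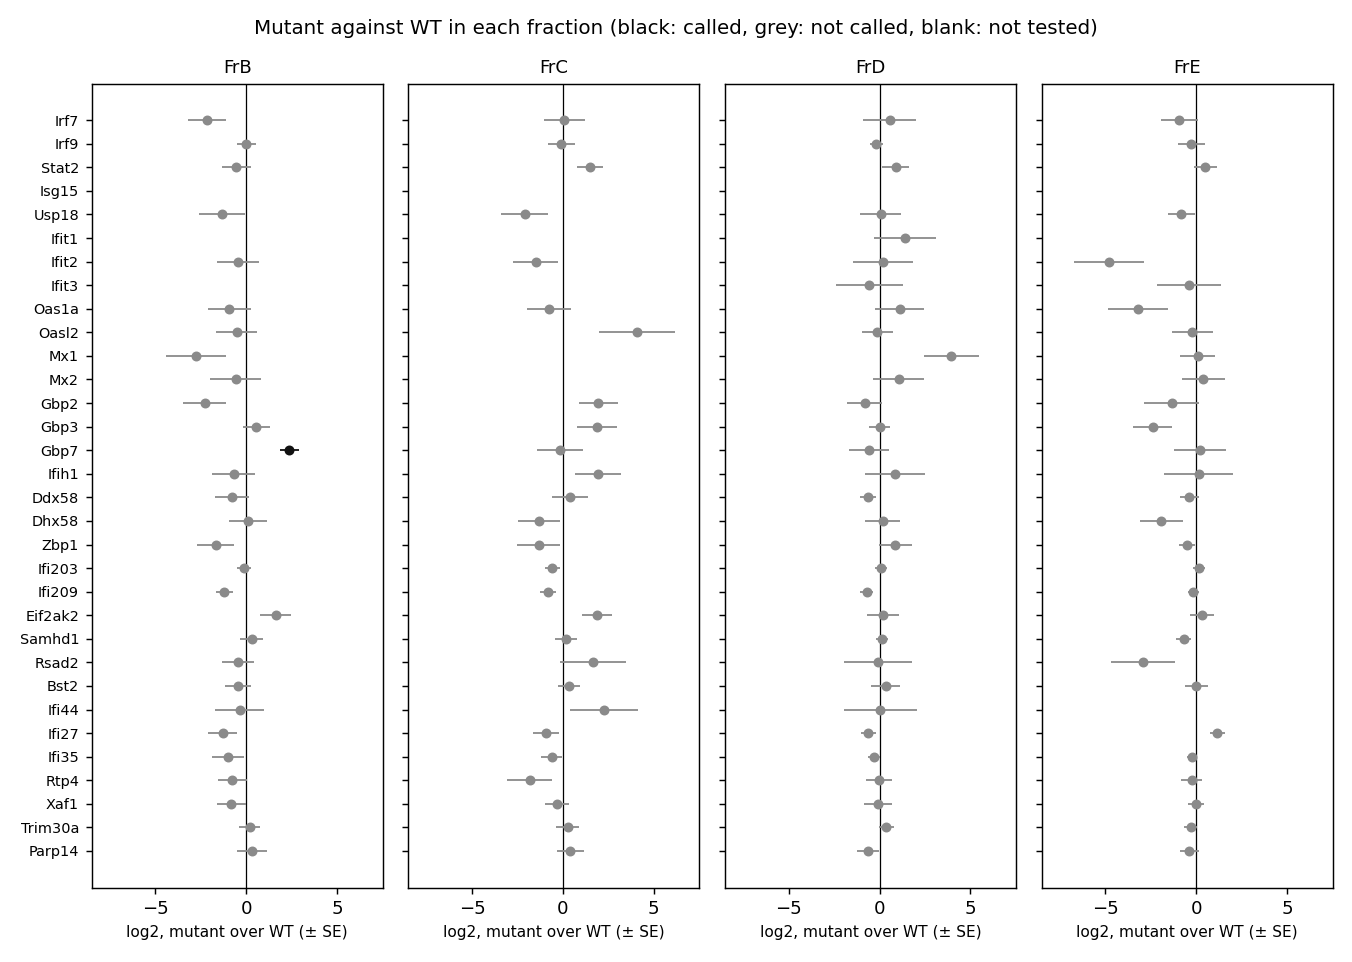
Log2 fold change of mutant over WT with its SE for the 32 members (rows) in each fraction, from edgeR on 5 against 5 mice; the black point passed an adjusted p of 0.05 and blank rows did not pass the filter on low counts. Gbp7 in FrB is the 1 member called, and 21 of 29 points in FrB lie below 0 on the TMM scale (13 of 29 with spike-in scaling).

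Genes of the further lists fell in mutant FrB. Of 69 further interferon-stimulated genes tested 5 fell and none rose, where 1.72% of all genes tested fell. They were Ms4a4c (-7.73 ± 0.99, adjusted p = 0.00354), the stem cell and lymphocyte surface protein Ly6a (-3.60 ± 0.65, adjusted p = 0.00684), Gpr18 (-4.87), Lgals9 (-1.56) and Shisa5 (-1.45). Of 23 interferon-gamma GTPases and antigen presentation genes 4 fell, namely B2m, the light chain of MHC class I (-1.67 ± 0.28, adjusted p = 0.00442), H2-D1, a heavy chain (-1.20), Ifi30 (-3.71) and Gbp8 (-5.99), and none rose. Isg20, an exonuclease kept in the signalling list, fell too (-3.28 ± 0.78, adjusted p = 0.02). With spike-in scaling Ms4a4c alone of these 10 genes was called, and 31 of 69 further interferon-stimulated genes lay below 0 instead of 42 of 69. The summed level of the further interferon-stimulated genes was 9894 to 13089 CPM in WT FrB and 6005 to 7270 CPM in mutant FrB, and 6122 CPM in mouse 5, whose library is not of low complexity. In the same libraries plasma cell markers summed to 15792 to 51624 CPM in WT and 1669 to 14041 CPM in mutant FrB. Granulocyte and monocyte markers summed to 125 to 12037 CPM in WT and 2404 to 100664 CPM in mutant FrB. Of 18 B lineage genes tested, 4 fell (Cd74 -4.23, Ms4a1 -3.24, Cd79a -2.22 and Cd79b -1.47), where 1.72% of all genes fell. Another 4 rose (Spn 3.22, Rag1 2.21, Ebf1 1.64 and Vpreb1 1.18), where 5.64% of all genes rose. With spike-in scaling Cd74 and Spn alone of the 18 were called. With the 4 fractions summed per mouse, 3 of 73 further interferon-stimulated genes were called, all lower (Trim34a -1.24, Gpr18 -1.22 and Shisa5 -0.98). Of 16 plasmacytoid dendritic cell markers 14 lay above 0 there, and 2 were called higher (Cox6a2 1.68 and Rpgrip1 1.13). In that comparison 0.631% of all genes were called, and with spike-in scaling none of these 5 genes was. The part of other cells and of B cell stage in these differences was not tested.

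Ifit1 was unevenly detected between the genotypes. In WT FrE it had 15.1, 0.0542, 9.52, 9.94 and 0 CPM, together 709 counts, and in mutant FrE it had no count in 5 of 5 libraries. Against a floor of 3 counts over the group, the mutant level was at least 232-fold lower, a bound that covers counting error only, since 2 of 5 WT libraries were also at or near 0. In FrD the order was the other way, with 0.0391, 13.7, 0.214, 0.091 and 3.41 CPM in WT and 0, 13.9, 14.4, 10.95 and 6.92 CPM in mutant. Ifit1 did not pass the filter on low counts in FrB, FrC and FrE, so it was tested between genotypes in FrD alone (1.41, not called).

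Whether the steps themselves differed between the genotypes was tested as an interaction over all 40 libraries. No member was called by edgeR for the step from FrB to FrC, from FrC to FrD or from FrD to FrE, beside 0.524%, 2.98% and 0.153% of all genes. An unadjusted p under 0.05 was reached by 4, 2 and 3 of 32 members, beside 12.83%, 13.995% and 10.24% of all genes. The members thus reached it no more often than all genes did. DESeq2 called 0, 0 and 1 (Ifit1, -9.02, adjusted p = 0.0278), without a share of all genes to set beside these counts. The median mutant step was -0.33, 1.05 and 0.19 over the members and the median WT step in the same fit was -0.99, 0.98 and 0.63. Both genotypes share no libraries, and a member without a call is not shown to behave alike in them.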

How the data were processed

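Gene counts of 40 Smart-seq2 libraries were used as the authors deposited them, as whole-number counts per gene with 92 ERCC spike-in rows. The submitters' processing notes name HISAT2 2.1.0, featureCounts 1.4.6, Subread, DESeq2 and the build mm10. The labels state neither how reads shared by near-identical genes were counted nor whether strand was used, which leaves values of the Gbp, Ifi203 and Ifi209, Ifit, Mx and Oas families uncertain to that extent. Gene identifiers were paired with symbols through GENCODE M21 (21728 of 21958 rows). Members, lists and tests were chosen with earlier results of these data known.

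Tests used edgeR 4.0.16 in R 4.3.3 (robust quasi-likelihood, TMM, filterByExpr at 10 counts per library and 15 in total), with DESeq2 1.42.0 as an alternative. Genotypes were compared within fractions, and WT steps over 20 WT libraries. The call threshold was an adjusted p of 0.05. Spike-ins stayed out of library sizes except in spike-in scaling. Values in every library were printed for members called in the most of 11 comparisons, ties by lowest p. Genes of the other lists were named mostly from those called between genotypes or in a WT step, and not all called genes were named. Same-numbered libraries came from the same mouse, which pairs them, although their deviations were barely correlated (medians -0.0186 to 0.0689). No 2 libraries were identical. The code was tested on simulated counts. Alternatives included a second-index covariate and a mouse-number covariate.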

Additional observations from a re-analysis of the deposited data

Results flagged for a closer look

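Over 48 groups of 5 libraries (the summed level and 5 members in 8 groups), 5 had a highest or lowest library far from the other 4, and chance flags about 1 in 20 such groups. All 5 are low-complexity libraries. The summed level in mutant FrE was lowest in mouse 9 (2072 CPM, next 2676), whose library had 42111 counts. Samhd1 in mutant FrC was highest in mouse 9 (181 CPM, next 55.8), the library with the TMM factor of 0.125. Samhd1 in WT FrE was highest in mouse 7 (1514 CPM, next 482). Ifi209 in WT FrD was lowest in mouse 3 (330 CPM, next 1049), and Gbp7 in the same library was highest (90.6 CPM, next 10.9).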

How the results depend on the processing

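Counts of members called kept within 1.5 times of the reported count in 52 of 64 alternatives other than leaving out a mouse, with both directions counted together. That hides 1 reversal: from FrC to FrD spike-in scaling gave 0 higher and 6 lower against 4 higher. The exceptions by count were these. In FrB between genotypes, 0 were called with spike-in scaling and 0 in a joint fit on 40 libraries, against 1, and 0 to 3 when 1 mouse was left out. The fit without low-complexity libraries keeps 1 mutant library there, assumed to vary like the WT libraries, and is not read as a result. From FrB to FrC in WT, DESeq2 called 1 and the fit without low-complexity libraries 2, against 0. From FrC to FrD, against 4, DESeq2 called 8, no filter on low counts 2, the replicate block 2, the fit without low-complexity libraries 12, and leaving out 1 mouse 2 to 4. From FrD to FrE, against 0, DESeq2 called 5, the fit without low-complexity libraries 3, and leaving out 1 mouse 0 to 2. For the genotype difference in that step, DESeq2 called 1 and the fit without low-complexity libraries 1, against 0. The replicate block changed no other count of calls. For DESeq2 and for leaving out 1 mouse the share of all genes called is not given here, so these counts lack a background. With spike-in scaling the change from FrC to FrD turned to -0.66 for Ifi209, -0.30 for Ddx58, -1.63 for Ifi35 and -1.50 for Ifi203. The causes were not tested. Isg15 had counts in 19 of 40 libraries and Ifit1 had none in 19 of 40, so lower levels of these genes were not detectable there.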
